A study of Mus musculus with 7 samples.

Results

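The genes described here are 9 immediate early genes, the transcription factor genes Fos, Fosb, Junb, Jun, Egr1, Egr3, Nr4a1 and Nr4a3 and the synaptic gene Arc. They were chosen by symbol, not by their values, and all 9 were present among the 27998 genes measured. The nuclei came from the striatum of HttQ175/+ mice, which carry 1 copy of mouse Htt with an expanded CAG repeat knocked in, and of wild-type (WT) mice. There were 4 HttQ175/+ and 3 WT mice, all C57BL6/J males, with 1 library per mouse. Their age was 14 months, and 15 months in HttQ175/+ replicate 1. HttQ175/+ mice model Huntington's disease, and every cell of these animals carries the allele. RNA of single nuclei was counted with unique molecular identifiers (UMIs), so each value is a number of captured nuclear RNA molecules. All mice were anaesthetised with a phenobarbital-based solution before dissection, and the labels give no stimulus or behaviour before it.

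Immediate early genes are transcribed within minutes of a stimulus, without the need for new protein. In neurons of the striatum, dopamine, glutamate and calcium entry reach them through protein kinase A, the MAP kinase ERK and the factors CREB and SRF. Most of their products are transcription factors that act on a later wave of target genes, and their RNAs are short-lived. They are known in the striatum as markers of recently active spiny projection neurons (SPNs), the neurons that carry the direct pathway (dSPNs) and the indirect pathway (iSPNs).

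The authors' annotation placed 4524 nuclei in 12 classes, of which 1809 were dSPNs and 941 iSPNs. Libraries held 338 to 1239 nuclei with a median of 1657 to 2599 UMIs per nucleus, and the lowest of these medians was that of HttQ175/+ replicate 2. Class names went with their markers for most classes, but nuclei annotated as endothelial had more UMIs of mural markers (8491 CPM, counts scaled to 1000000 UMIs per nucleus) than of endothelial markers (6584 CPM). Eccentric SPNs had about as many UMIs of dSPN markers (968 CPM) as of eccentric SPN markers (956 CPM). The 87 SPNs of unknown subtype had little of either the dSPN markers (30.4 CPM) or the iSPN markers (27.3 CPM). The libraries shared 3 cell barcodes, carried by 6 nuclei. Doublets were not called here.

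Promoters of 6 of the 9 genes were found in the RefSeq table (GRCm38.p6), as the 250 bases before the transcript start that the table uses. For Nr4a1 that start lies inside the gene as GENCODE vM21 gives it (chromosome 15, 101254269 to 101274795). Those of Fos and Nr4a1 are shown as windows with repeats of the letters searched, and those of Junb and Jun as a pair of AP-1 genes whose order over the classes differed. Capitals mark TGACG or its reverse complement CGTCA, the core letters of the cyclic AMP response element that CREB binds. The windows are chr12:85473640-85473889 on the plus strand for Fos, chr8:84978749-84978998 on the minus strand for Junb, chr15:101266596-101266845 on the plus strand for Nr4a1 and chr4:95052223-95052472 on the minus strand for Jun, each written 5′ to 3′ on the gene's strand.
Fos: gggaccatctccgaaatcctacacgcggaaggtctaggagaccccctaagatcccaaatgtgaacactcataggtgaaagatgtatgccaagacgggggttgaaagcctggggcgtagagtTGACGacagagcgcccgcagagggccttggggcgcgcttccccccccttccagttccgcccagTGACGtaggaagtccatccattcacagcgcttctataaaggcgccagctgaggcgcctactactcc
Junb: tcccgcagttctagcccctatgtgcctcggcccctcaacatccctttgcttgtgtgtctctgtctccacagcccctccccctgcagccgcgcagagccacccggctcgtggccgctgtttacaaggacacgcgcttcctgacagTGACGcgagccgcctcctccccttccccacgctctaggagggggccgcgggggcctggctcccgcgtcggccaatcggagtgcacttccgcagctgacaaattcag
Nr4a1: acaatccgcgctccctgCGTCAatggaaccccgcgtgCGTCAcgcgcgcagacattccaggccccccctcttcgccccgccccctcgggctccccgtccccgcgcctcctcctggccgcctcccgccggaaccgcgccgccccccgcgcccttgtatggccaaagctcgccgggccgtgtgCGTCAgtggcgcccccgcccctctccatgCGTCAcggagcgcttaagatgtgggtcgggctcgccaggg
Jun: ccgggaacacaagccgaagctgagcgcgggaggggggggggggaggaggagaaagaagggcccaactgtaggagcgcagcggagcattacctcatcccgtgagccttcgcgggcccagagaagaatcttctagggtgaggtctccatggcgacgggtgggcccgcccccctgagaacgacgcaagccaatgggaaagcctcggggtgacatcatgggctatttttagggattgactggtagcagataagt

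These letters, searched on both strands, stood at 4 places in the Nr4a1 window, 2 in the Fos window, 1 in the Junb window and 0 in the Jun window. The windows of Nr4a3 and Fosb held 4 and 1. Of 32851 mouse promoter windows of the same length, 17.8% held at least 1. The full palindrome TGACGTCA was in none of the 6 windows and in 1.55% of all windows. The TATA box letters TATAAA were in the Fos window, their first base 33 bases before the start, and in 12.4% of all windows. The letters CCAAT were in the Junb and Jun windows and in 33.8% of all windows. Neither TGANTCA, the site of FOS and JUN dimers (6.75% of all windows), nor the CArG box of SRF (1.47%) was in any of the 6. These are matches of letters and not measured binding.

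The values of 1 UMI need to be described before any level, because they were missing for some genes in some libraries. Junb was at exactly 1 UMI in 114, 149, 24 and 93 nuclei of HttQ175/+ replicates 1 to 4, against 0, 9 and 76 nuclei of WT replicates 1 to 3. At 2 UMIs it was in 34, 17, 12 and 31 nuclei of the HttQ175/+ mice, against 23, 17 and 20 nuclei of the WT mice. WT replicate 1 thus had 23 nuclei with 2 Junb UMIs and none with 1. Egr1 was at 1 UMI in 90, 128, 20 and 30 nuclei of the HttQ175/+ mice, against 0, 17 and 12 nuclei of the WT mice. At 2 UMIs Egr1 was in 34, 26, 21 and 51 nuclei of the HttQ175/+ mice, against 43, 24 and 40 nuclei of the WT mice.

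The gap was partial in some libraries. In HttQ175/+ replicate 4 the deepest nucleus at 1 UMI of Egr1 had 2096 UMIs in all, although the library reached 5434. In WT replicate 3 that nucleus had 1709 of up to 5578 UMIs. Arc, at 1 UMI in 60, 38, 25 and 58 nuclei of HttQ175/+ mice and in 41, 15 and 35 nuclei of WT mice, had such nuclei in every library. Nr4a1 had them too, but in WT replicate 1 they were fewer (20) than those with 2 or more UMIs (37). The deepest nucleus at 1 UMI of Nr4a1 had 2511 of up to 5413 UMIs in WT replicate 1 and 2602 of up to 5434 in HttQ175/+ replicate 4. Of the genes with at least 20 UMIs in a library, 3.97% to 6.70% had no nucleus at 1 UMI. No member was among the 274 genes for which this held in all 7 libraries. No source used here names the step that removed these values. Changes of the members in SPNs and oligodendrocytes, where the gene still passed the filter, and the dSPN levels and shares of Junb and Egr1 are therefore also given without the values of 1 UMI. This setting is applied to every library by the same rule, but its effect can depend on depth. It was chosen after the data were seen.

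**Figure D1:**
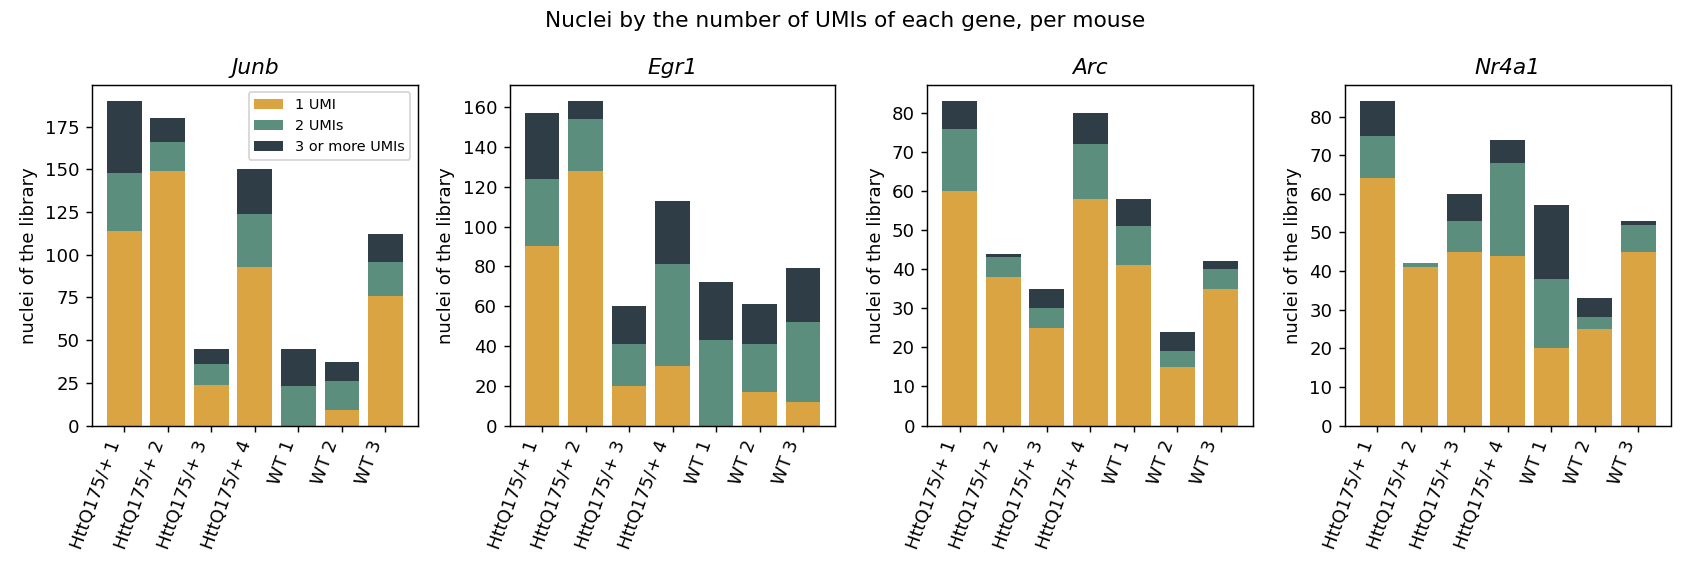
Number of nuclei (y axis) with 1, 2 and 3 or more UMIs of Junb, Egr1, Arc and Nr4a1 in each of the 7 libraries (x axis, HttQ175/+ then WT). Junb and Egr1 have 0 nuclei at 1 UMI in WT replicate 1, while Arc and Nr4a1 have such nuclei in every library.

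The RNAs of the members were sparse. Egr1, a zinc finger transcription factor, gave 1378 UMIs in 705 nuclei (15.6% of all nuclei), and Junb, a partner of FOS proteins in the AP-1 factor, gave 1347 UMIs in 759 nuclei (16.8%). Nr4a1, an orphan nuclear receptor, gave 613 UMIs in 403 nuclei (8.91%), and Arc, whose protein acts at synapses in the removal of AMPA receptors, gave 525 UMIs in 366 nuclei (8.09%). The other 5 members were rarer, with Jun at 206 UMIs, Fos at 128, Nr4a3 at 100 and Fosb at 99. Egr3, a relative of Egr1, had 12 UMIs in the whole series, each in a different nucleus, of which 7 were iSPNs, 4 dSPNs and 1 a polydendrocyte. Most nuclei with a member had few UMIs of it, and the highest number in a single nucleus was 14, for Junb. In GENCODE vM21 (mm10) Junb lies on chromosome 8 (84974484 to 84978718, minus strand) and overlaps Prdx2 on the opposite strand. Jun lies on chromosome 4 (95049034 to 95052222, minus strand) and overlaps the antisense gene Junos. No source used here says whether the counting used the strand, so reads of these pairs cannot be told apart with certainty.

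Levels are given as mean CPM over a mouse's nuclei of a class, then as the mean ± SD over mice with at least 10 nuclei of that class. They are set side by side within a gene only, across classes. In dSPNs, Junb averaged 151 ± 40.7 CPM and Egr1 156 ± 44.7 CPM (n = 7 mice). In iSPNs they averaged 159 ± 79.1 and 181 ± 67.2 CPM (n = 7). Both were lower in oligodendrocytes (Junb 91.4 ± 40.6 CPM, Egr1 76.9 ± 46.8 CPM) and in astrocytes (58.9 ± 31.0 and 55.3 ± 33.7 CPM, n = 7). SPNs did not have the highest mean of Junb. That was in endothelial nuclei, at 196 ± 172 CPM over 4 mice, with a range of 44.4 to 433 CPM. Pooled over all nuclei, microglia had 155 CPM of Junb (29 UMIs in 82 nuclei), against 150 CPM in dSPNs. Within single mice, dSPNs had more Junb than astrocytes, than oligodendrocytes and than Sst interneurons in 7 of 7 mice each. For Egr1 dSPNs were higher in 7, 7 and 6 of 7 mice. In the full order of classes, neighbouring classes had ranges over mice that overlapped, for each of the 9 genes.

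Arc and Nr4a1 followed a like order in the SPNs. Arc averaged 64.1 ± 31.7 CPM in dSPNs, 60.8 ± 39.8 CPM in iSPNs, 40.5 ± 18.0 CPM in oligodendrocytes and 18.6 ± 19.4 CPM in astrocytes (n = 7 each). It was higher in dSPNs than in astrocytes in 7 of 7 mice, and than in oligodendrocytes in 6 of 7. Nr4a1 averaged 73.2 ± 39.1 CPM in dSPNs and 72.0 ± 40.6 CPM in iSPNs, against 24.2 ± 26.8 CPM in astrocytes, with dSPNs higher in 7 of 7 mice. Its highest mean was in polydendrocytes, the oligodendrocyte progenitors, at 156 ± 59.7 CPM over 5 mice, of which 4 were HttQ175/+ (165, 115, 213 and 210 CPM) and 1 was WT (76.4 CPM). These 5 mice had 11 to 17 polydendrocytes each, and the class gave 28 Nr4a1 UMIs in 13 of 78 nuclei over all mice. Polydendrocytes had more Nr4a1 than eccentric SPNs of the same mouse in 5 of 5 mice, although the ranges over mice overlapped.

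Jun, the other founding partner of AP-1, had a different distribution from Junb. It averaged 6.47 ± 5.0 CPM in dSPNs and 10.9 ± 12.2 CPM in iSPNs, against 92.1 ± 60.3 CPM in astrocytes and 43.0 ± 21.2 CPM in oligodendrocytes (n = 7 each). Astrocytes and oligodendrocytes each had more Jun than dSPNs in 7 of 7 mice, and astrocytes more than iSPNs in 7 of 7. Endothelial nuclei had the highest mean (287 ± 266 CPM, 4 mice), ranging over 91.6, 31.0 and 454 CPM in HttQ175/+ replicates 1 to 3 and 571 CPM in WT replicate 1.

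Fos, Fosb, Nr4a3 and Egr3 were near the limit of detection. Fos had 15.6, 2.57, 7.15 and 25.1 CPM in dSPNs of HttQ175/+ replicates 1 to 4, against 8.86, 0 and 1.76 CPM in WT replicates 1 to 3. These rest on 0 to 16 UMIs a mouse, and the 0 of WT replicate 2 allows up to 8.96 CPM (3 UMIs). Over all classes Fos was at 1 UMI in 25, 10, 7 and 22 nuclei of the HttQ175/+ mice, against 7, 6 and 0 nuclei of the WT mice. WT replicate 3 had 2 nuclei at 2 UMIs of Fos, so values of 1 UMI may be missing there, which was not tested. Fos averaged 8.7 to 13.4 CPM in the 5 classes with 7 mice. Nr4a3, a relative of Nr4a1, had 1.60, 0.55, 27.3 and 21.0 CPM in dSPNs of HttQ175/+ mice, against 13.6, 3.79 and 15.2 CPM in WT mice, so the HttQ175/+ mice held both the lowest and the highest values. No class averaged more than 18.3 CPM of Fosb, 12.9 CPM of Nr4a3 or 3.8 CPM of Egr3.

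A single set of nuclei stood out for Fos. Pnoc/Pvalb interneurons of WT replicate 2 had 284 CPM of Fos, against 0 to 41.2 CPM in the other 4 mice with at least 10 such nuclei. The same 18 nuclei had 367 CPM of Egr1, 210 CPM of Nr4a1 and 141 CPM of Jun, and their 9 members summed to 1289 CPM on 59 UMIs. A member was found in 55.6% of them. At the other end, cholinergic interneurons had a member in 12.3% of 73 nuclei and never more than 1 member in a nucleus, against 41.5% of dSPNs, although their median depth was higher (2815 UMIs, against 2175 UMIs in dSPNs). Junb, Egr1 and Arc had 1 UMI each there, and 67 of the 73 nuclei were from HttQ175/+ mice.

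**Figure D2:**
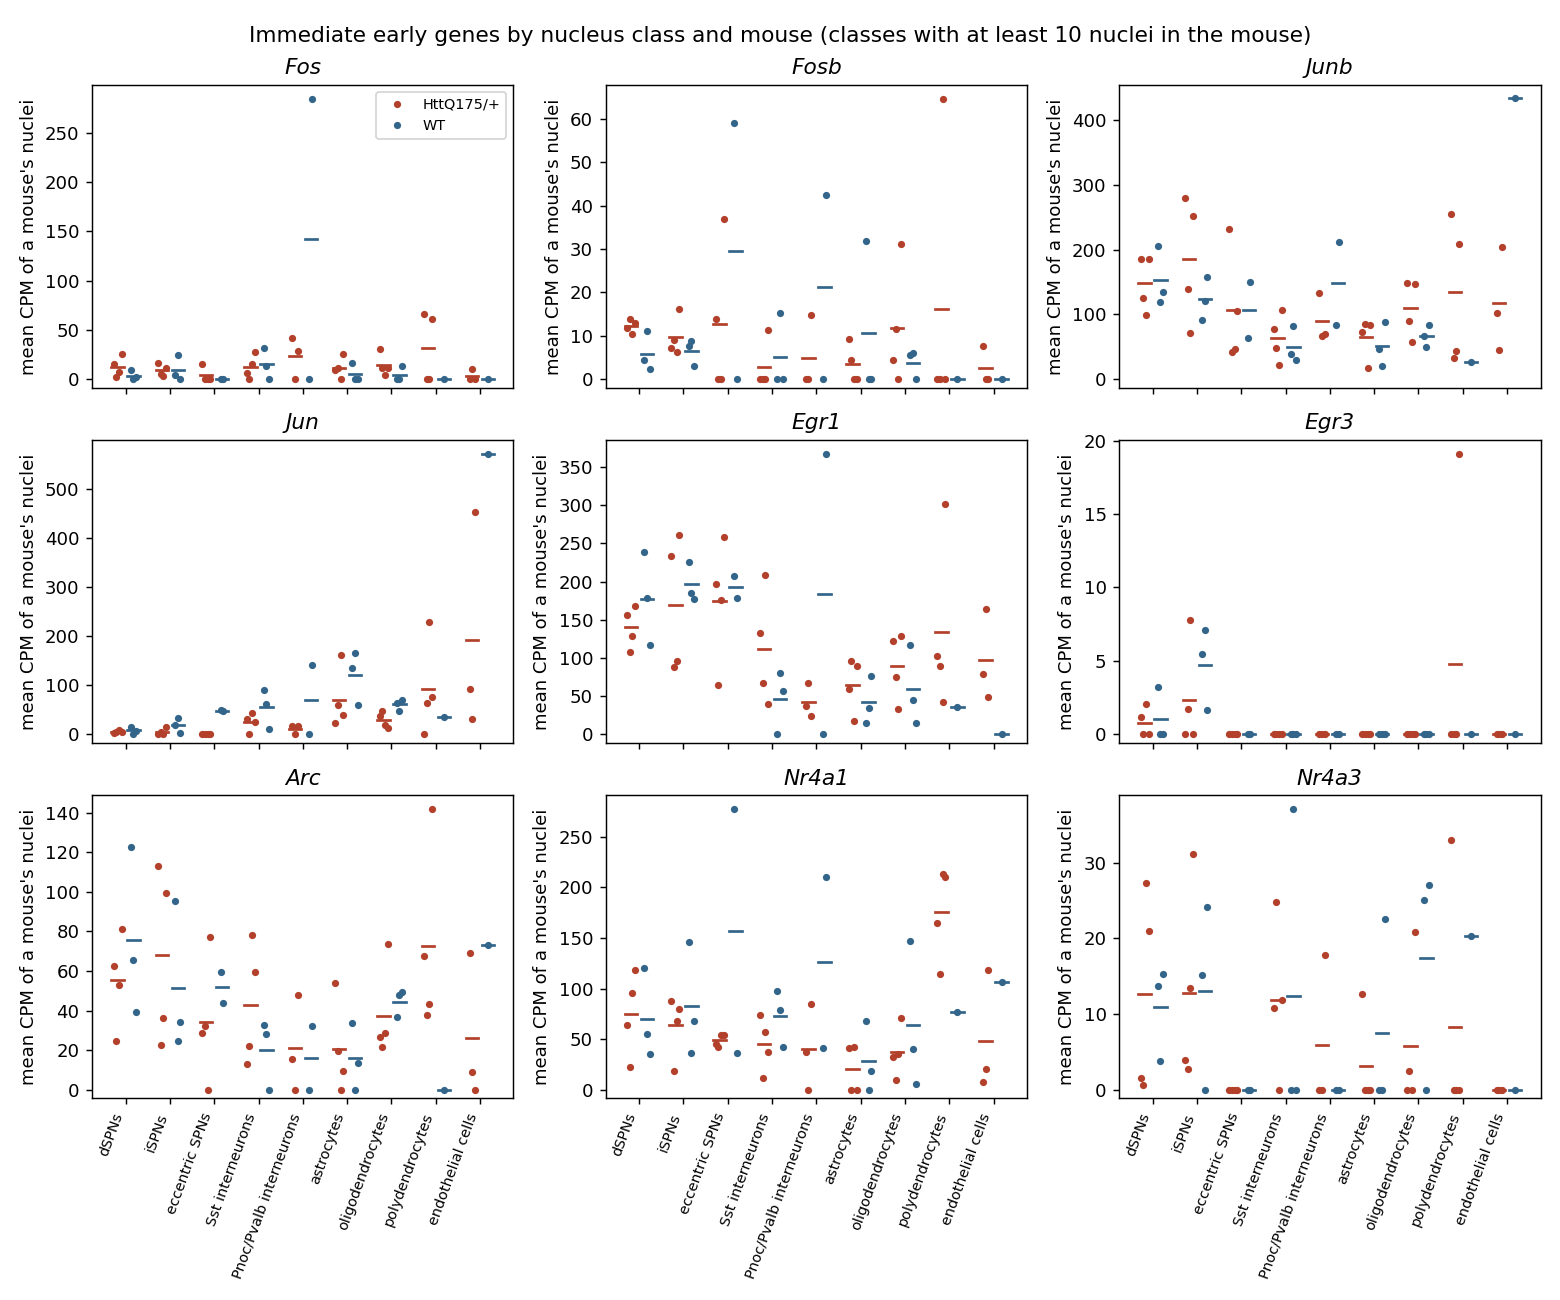
Mean CPM (y axis, linear, a scale for each gene) of the 9 genes in the nuclei of each mouse (points, HttQ175/+ left of WT) by class (x axis), with horizontal bars at the group means, for classes with at least 10 nuclei in the mouse. Junb, Egr1, Arc and Nr4a1 are seen in both SPN classes in every mouse, Jun is higher in astrocytes than in dSPNs in 7 of 7 mice, and Fos stands at 284 CPM in the Pnoc/Pvalb interneurons of WT replicate 2.

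Free RNA in the droplets can put UMIs into nuclei that do not transcribe a gene, so the glial levels were set beside those of SPN genes. In oligodendrocytes the dopamine receptor gene Drd1 was at 29.3% and the peptide gene Tac1 at 30.7% of their dSPN level. Junb was at 60.7%, Egr1 at 49.1%, Arc at 63.2% and Nr4a1 at 66.6% of theirs. In astrocytes Drd1 was at 12% and Tac1 at 11.5% of the dSPN level, against 39.1% for Junb, 35.3% for Egr1, 29.0% for Arc and 33.1% for Nr4a1. In cholinergic interneurons Drd1 was at 0.83% and Tac1 at 0, against 1.6% for Junb, 1.1% for Egr1, 3.5% for Arc and 17.5% for Nr4a1. Values of 1 UMI were missing for Tac1 in every library, while Arc had them in every library. The Tac1 percentages on mean CPM thus leave such nuclei out. Pdyn, another dSPN peptide gene, was at 29.5% of its dSPN level in oligodendrocytes and 21.6% in astrocytes. On mean CPM the 4 members thus stood above these 3 dSPN genes in both glial classes. By the share of nuclei with at least 2 UMIs they did not all do so. In oligodendrocytes Pdyn was then at 52.4% and Tac1 at 39.9% of the dSPN share, against 63.3% for Junb, 45.8% for Egr1, 40.6% for Arc and 59.3% for Nr4a1. In astrocytes Pdyn was at 38.6%, above Junb (36.2%), Egr1 (37.1%), Arc (28.0%) and Nr4a1 (30.0%). Unlike the dSPN genes, the 4 members were at like levels in iSPNs. The 5 dSPN markers summed to 997 CPM in dSPNs and 122 CPM in iSPNs. The percentages of the members and of the dSPN genes are therefore not a like comparison of free RNA. How much of a glial value is RNA of other nuclei was not tested.

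Members occurred together in the same nuclei. Of dSPNs, 41.5% had at least 1 member, 5.91% had at least 3, and the most in a nucleus was 7. Of iSPNs, 40.6% had at least 1 and 4.99% at least 3. This was not particular to SPNs. At least 3 members were found in 7.69% of 78 polydendrocytes, 6.10% of 82 microglia and 4.27% of 468 oligodendrocytes. Astrocytes were lower (2.67% of 300), and of 73 cholinergic interneurons 0 had as many. At least 1 member was found in 46.4% of 112 endothelial nuclei. Nuclei with 3 or more members made up 8.72%, 1.77%, 5.65% and 8.64% of dSPNs in HttQ175/+ replicates 1 to 4, against 10.4%, 5.04% and 5.19% in WT replicates 1 to 3. The lowest share was in the shallowest library, HttQ175/+ replicate 2.

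To compare nuclei of unlike depth, each nucleus was reduced to 1000 UMIs by exact expectation. In dSPNs with a Junb UMI, Egr1 was then found in a mean of 23.5% of nuclei over the 7 mice, against 8.98% of dSPNs without, and higher with Junb in 7 of 7 mice. By mouse these shares with Junb were 20.7%, 20.5%, 11.2% and 23.5% in HttQ175/+ replicates 1 to 4, against 37.1%, 34.9% and 16.2% in WT replicates 1 to 3. Without Junb they were 9.2%, 6.9%, 9.6% and 8.6% in the HttQ175/+ mice, against 12%, 10.01% and 6.5% in the WT mice. The median depths of both kinds of nuclei were close (2461 and 2399 UMIs). The missing values of 1 UMI touch these shares, and WT replicates 1 and 2, with the highest shares, had 0 and 9 nuclei at 1 UMI of Junb.

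The pairs with Arc and Nr4a1 were also higher with the partner in most mice. All but that of Nr4a1 with Arc use Junb or Egr1 as the partner, and Nr4a1 itself lacks part of its values of 1 UMI in WT replicate 1 and HttQ175/+ replicate 4. Arc was found in 12.8% of dSPNs with Junb, against 3.64% without, and in 13.3% with Egr1, against 3.42% without (7 of 7 mice each). Nr4a1 was found in 16.0% of dSPNs with Arc, against 4.76% without (7 of 7), in 12.1% with Egr1, against 4.57% without (7 of 7), and in 9.76% with Junb, against 5.05% without (6 of 7). In iSPNs the same 6 pairs were higher with the partner in 5 to 7 of 7 mice, for example Egr1 at 26.0% with Junb, against 10.4% without (6 of 7). With at least 2 UMIs required of both genes, at the deposited depth, Egr1 was found in 41.8% of dSPNs with Junb, against 10.5% of those without (7 of 7), from 60 of 143 nuclei. Nr4a1 with Arc was then higher in 4 of 7 mice (25.7%, against 3.19% without). These shares are a description of nuclei that share a library, and no test was made across nuclei.

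**Figure D3:**
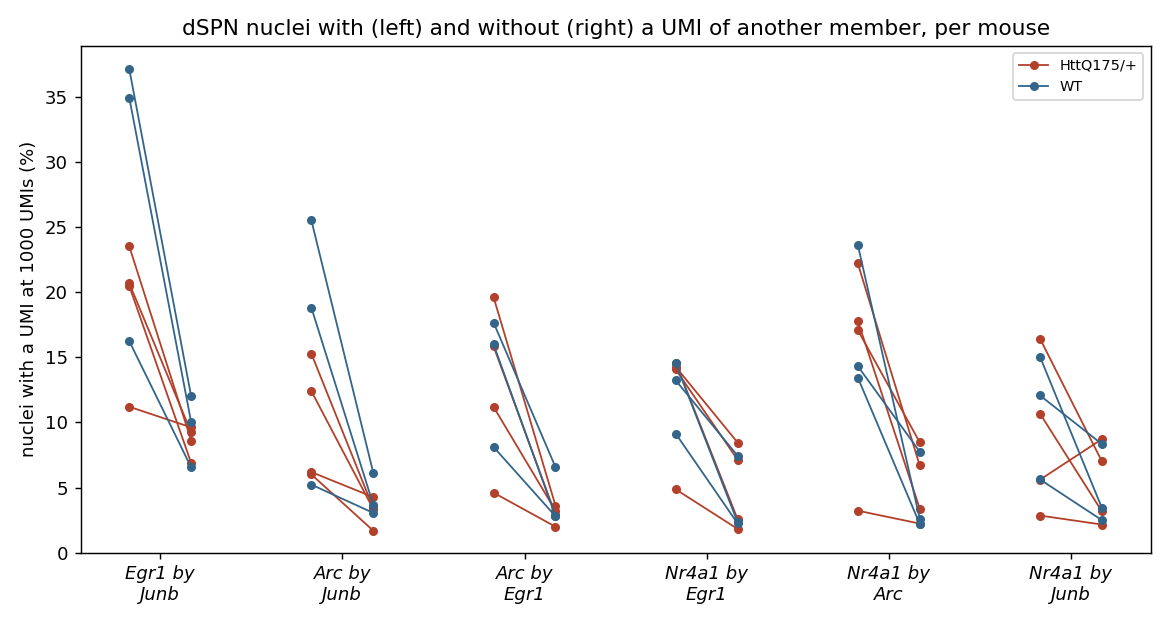
Share of dSPN nuclei with a UMI of the gene named first, at 1000 UMIs per nucleus (y axis, percent), among nuclei with (left point) and without (right point) a UMI of the gene named after "by", for 6 pairs (x axis). Each line is a mouse, HttQ175/+ or WT. In 5 of the pairs the left point is higher in 7 of 7 mice, and for Nr4a1 by Junb in 6 of 7.

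The 9 members summed were highest in the SPNs of the same few mice. In dSPNs the sum was 502, 303, 433 and 618 CPM in HttQ175/+ replicates 1 to 4, against 733, 433 and 352 CPM in WT replicates 1 to 3. In iSPNs it was 743, 292, 302 and 766 CPM in the HttQ175/+ mice, against 611, 440 and 471 CPM in the WT mice. HttQ175/+ replicates 1 and 4 and WT replicate 1 were the 3 highest in both classes. They were also the 3 highest in oligodendrocytes, at 402, 270, 178 and 497 CPM in HttQ175/+ mice, against 463, 237 and 263 CPM in WT mice. Sst interneurons had another order, at 346, 174, 423 and 319 CPM in HttQ175/+ mice, against 291, 397 and 139 CPM in WT mice. Astrocytes stayed between 219 and 347 CPM in all 7 mice, and the genotypes overlapped in each of these classes. Oligodendrocytes also held UMIs of SPN genes, as given above, and their part in this shared order was not tested.

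**Figure D4:**
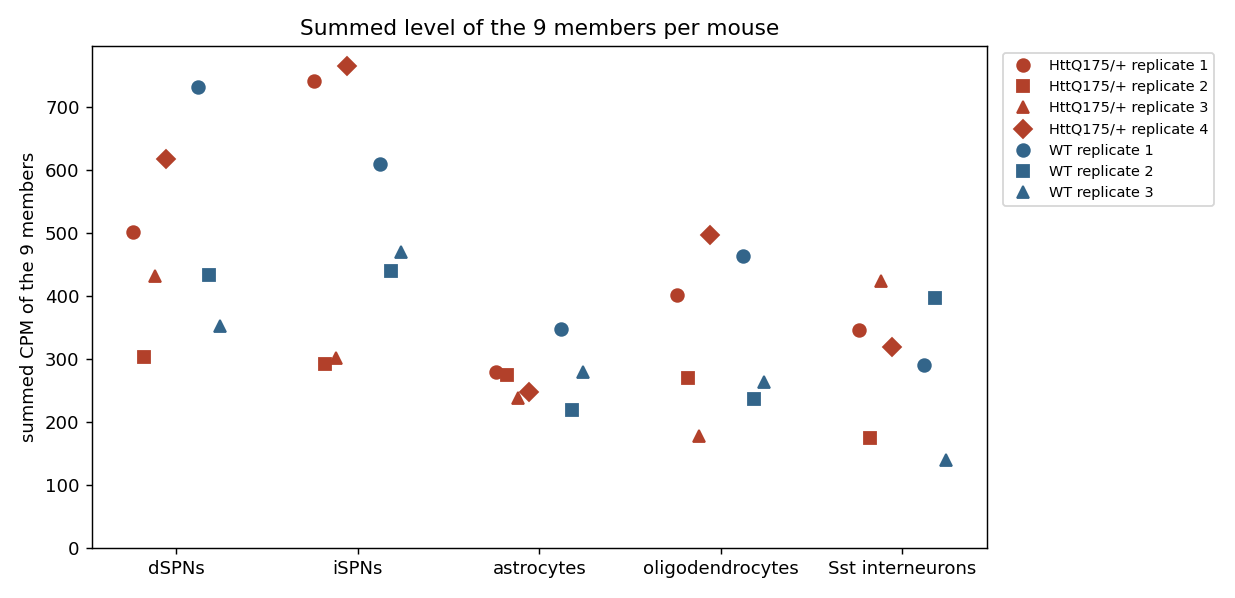
Summed CPM of the 9 genes (y axis) in each mouse (symbols, HttQ175/+ left of WT) for 5 classes (x axis). HttQ175/+ replicates 1 and 4 and WT replicate 1 are the 3 highest in dSPNs, iSPNs and oligodendrocytes, and the genotypes overlap in every class.

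The spread between mice of 1 genotype was larger for members than for most genes. In dSPNs the residual SD on the log2 scale was 0.93 for Nr4a1, 0.72 for Arc, 0.44 for Junb and 0.38 for Egr1, beside a median of 0.30 over the 8796 genes tested. In iSPNs it was 0.92 for Arc, 0.86 for Nr4a1, 0.71 for Junb and 0.61 for Egr1, beside a median of 0.32 over 5908 genes. Low genes vary more from counting alone, and levels were not matched in these medians. Missing values of 1 UMI touch Junb, Egr1 and Nr4a1, and their part in the spread was not tested.

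The design asks which genes differ between HttQ175/+ and WT striatum. Genotypes were compared in the 5 classes that had 10 or more nuclei in 3 or more mice of each genotype, with limma on log2(CPM + pseudocount) of each mouse's mean, over all genes that passed a filter on low values. The pseudocount was worth 2 UMIs of the median mouse (3.67 CPM in dSPNs), so changes of low genes are understated. P-values were adjusted by Benjamini-Hochberg over all genes of a class and called under 0.05. Each library is 1 mouse, so the spread tested is that between mice.

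No member was called in any class. In dSPNs 4 of the 9 members passed the filter and 0 were called, beside 3.93% of the 8796 genes tested. In iSPNs the same 4 passed and 0 were called, beside 2.29% of 5908 genes (0.525% higher and 1.76% lower in HttQ175/+ mice). The 4 had a median log2 change of -0.28 in dSPNs and -0.10 in iSPNs, beside 0.03 and 0.00 over all genes tested. In oligodendrocytes 2 members passed and 0 were called (0.658% of 3650 genes, 0.11% higher and 0.548% lower), in astrocytes 1 passed and 0 were called (0 of 1873 genes), and in Sst interneurons no member passed (0 of 2296 genes called). At an unadjusted p under 0.05 limma also found 0 members in each class, against 1560 of all genes in dSPNs, 893 in iSPNs, 488 in oligodendrocytes, 250 in astrocytes and 176 in Sst interneurons. With so few members in a fit, a count of 0 is near these background shares. In simulated data the fit called 27.4% of 2-fold changes in dSPNs and 24.6% in iSPNs. The spread of those data was not matched to that of the members, so these are not rates for the members.

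Summed markers of several classes also differed between the genotypes within the SPNs, with no overlap of mice. In dSPNs the 5 dSPN markers summed to 750.2 to 954 CPM in HttQ175/+ mice, against 1164 to 1546 CPM in WT mice. Eccentric SPN markers summed to 89.0 to 122 CPM in HttQ175/+ mice, against 35.9 to 63.4 CPM in WT mice. Those of cortical excitatory neurons summed to 19.8 to 39.5 CPM in HttQ175/+ mice, against 3.1 to 10.1 CPM in WT mice. Those of neuroblasts or progenitors were at 104 to 156 CPM in HttQ175/+ mice, against 59.5 to 72.4 CPM in WT mice, and those of oligodendrocyte progenitors at 104 to 132 CPM in HttQ175/+ mice, against 71.8 to 100.5 CPM in WT mice. In iSPNs the 5 iSPN markers summed to 802 to 906 CPM in HttQ175/+ mice, against 1964 to 2669 CPM in WT mice, and eccentric SPN markers to 35.4 to 69.9 CPM in HttQ175/+ mice, against 7.9 to 26.0 CPM in WT mice. Those of neuroblasts or progenitors and of microglia were higher in HttQ175/+ iSPNs with no overlap as well. Marker lists of many cell types were summed, only sums without overlap are given here, and none was tested. The share of all marker lists, or of all genes, without overlap is not given, so these sums cannot be set against it. The part of other nuclei in the changes below was not tested.

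Egr1 was lower in dSPNs of HttQ175/+ mice on average, within the spread of the mice. It had 156, 108, 129 and 169 CPM in dSPNs of HttQ175/+ replicates 1 to 4, against 238, 178 and 117 CPM in WT replicates 1 to 3. The highest 2 values were WT, but WT replicate 3 lay among the HttQ175/+ mice. The log2 change was -0.40 ± 0.23 (SE; 95% interval -0.90 to 0.09; limma adjusted p = 0.391). In iSPNs Egr1 had 234, 88.3, 96.0 and 261 CPM in HttQ175/+ mice, against 226, 186 and 178 CPM in WT mice. The HttQ175/+ mice lay in pairs above and below all WT mice, with a log2 change of -0.45 ± 0.32 (limma adjusted p = 0.571).

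Junb overlapped between the genotypes in both SPN classes. In dSPNs it had 185, 126, 99.8 and 186 CPM in HttQ175/+ mice, against 206, 119 and 134 CPM in WT mice, a log2 change of -0.15 ± 0.25 (95% interval -0.69 to 0.38; limma adjusted p = 0.807). In iSPNs it had 280, 139, 71.6 and 252 CPM in HttQ175/+ mice, against 91.0, 121 and 158 CPM in WT mice, a log2 change of 0.32 ± 0.36 (limma adjusted p = 0.761). Without the values of 1 UMI the iSPN change turned to -0.32 (limma adjusted p = 0.749) and the dSPN change moved to -0.68 (limma adjusted p = 0.229). The dSPN levels were then 119, 39.6, 60.9 and 102 CPM of Junb in HttQ175/+ mice, against 206, 109 and 78.8 CPM in WT mice, and 101, 44.5, 111 and 138 CPM of Egr1 in HttQ175/+ mice, against 238, 149 and 97.5 CPM in WT mice. Both overlapped between the genotypes. Egr1 moved to -0.70 ± 0.30 in dSPNs and to -0.87 ± 0.39 in iSPNs in that setting (limma adjusted p = 0.157 and 0.164). The median change over all genes tested moved as well, to -0.11 in dSPNs and -0.20 in iSPNs. HttQ175/+ libraries were also shallower, at medians of 1657 to 2384.5 UMIs per nucleus, against 2498 to 2599 UMIs in WT libraries, and the part of depth in these changes was not tested.

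Arc was 62.5, 24.7, 53.0 and 80.9 CPM in dSPNs of HttQ175/+ mice, against 123, 65.6 and 39.1 CPM in WT mice. The groups overlapped, with a log2 change of -0.50 ± 0.37 (95% interval -1.30 to 0.30; limma adjusted p = 0.538), and -0.71 without the values of 1 UMI (limma adjusted p = 0.504). In iSPNs Arc had 113, 22.6, 36.1 and 99.6 CPM in HttQ175/+ mice, against 95.3, 24.8 and 34.4 CPM in WT mice, a log2 change of 0.21 ± 0.46 (limma adjusted p = 0.891). The difference between these changes, taken within each mouse, was -0.71 ± 0.35 (95% interval -1.43 to -0.00066), with an unadjusted p of 0.0498 and a limma adjusted p of 0.781 over 5903 genes, of which 0.0169% were called. The other 3 members in that comparison had adjusted p of 0.819 to 0.988.

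Nr4a1 spread most in dSPNs, at 64.2, 22.8, 95.5 and 119 CPM in HttQ175/+ mice, against 120.5, 55.4 and 35.1 CPM in WT mice. Its log2 change was -0.05 ± 0.46 (95% interval -1.03 to 0.93; limma adjusted p = 0.973), and -0.32 without the values of 1 UMI (limma adjusted p = 0.826). In iSPNs it had 87.9, 18.9, 68.3 and 79.6 CPM in HttQ175/+ mice, against 146, 36.2 and 67.6 CPM in WT mice (log2 change -0.41 ± 0.43, limma adjusted p = 0.734). In both classes HttQ175/+ replicate 2, the shallowest library, was the lowest of the 7 mice.

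In glia the members that passed the filter were Jun in astrocytes and Junb and Egr1 in oligodendrocytes. Jun had 22.7, 59.8, 162 and 39.0 CPM in astrocytes of HttQ175/+ mice, against 135, 165 and 60.7 CPM in WT mice, a log2 change of -0.77 ± 0.60 (95% interval -2.01 to 0.48; limma adjusted p = 0.595). These values rest on 3 to 11 UMIs a mouse. Junb had 148, 90.3, 56.7 and 146 CPM in oligodendrocytes of HttQ175/+ mice, against 66.6, 49.0 and 83.1 CPM in WT mice. HttQ175/+ replicates 1, 2 and 4 were above all WT mice and replicate 3 lay between them, with a log2 change of 0.55 ± 0.36 (limma adjusted p = 0.533). Egr1 had 123, 75.2, 33.5 and 129 CPM in oligodendrocytes of HttQ175/+ mice, against 117, 45.2 and 15.5 CPM in WT mice, a log2 change of 0.62 ± 0.50 (limma adjusted p = 0.641), and 0.47 without the values of 1 UMI (limma adjusted p = 0.734).

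**Figure D5:**
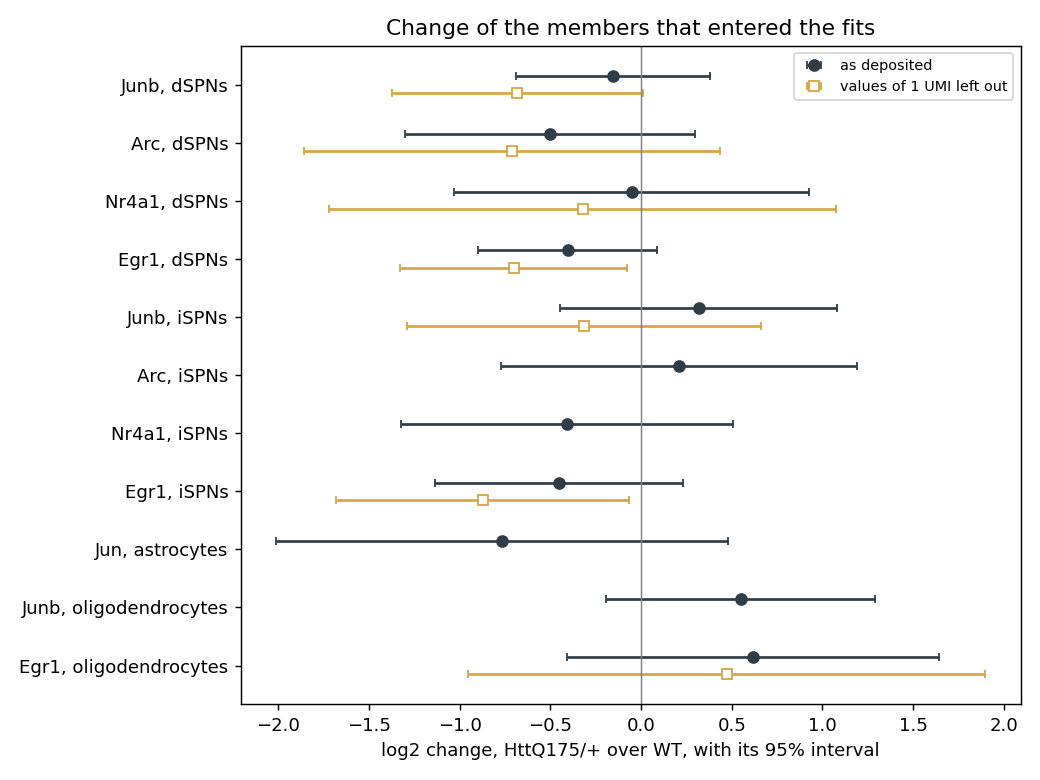
Log2 change, HttQ175/+ over WT (x axis), with its 95% interval, of each member that entered a fit (y axis), as deposited (filled points) and with values of 1 UMI left out (open squares, where the gene still passed the filter). As deposited every interval plotted spans 0, and with values of 1 UMI left out those of Egr1 in dSPNs (-0.70) and iSPNs (-0.87) do not, with adjusted p of 0.157 and 0.164. In that setting the median change over all genes tested was -0.11 in dSPNs and -0.20 in iSPNs.

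With no filter on low genes all 9 members entered the dSPN and iSPN fits and 8 entered each of the others, and none was called. The lowest unadjusted p of an SPN class was that of Jun in iSPNs, at 0, 4.46, 0 and 15.5 CPM in HttQ175/+ mice, against 20.1, 32.4 and 3.83 CPM in WT mice. Its log2 change was -1.04 ± 0.44 (limma adjusted p = 0.355, and 0.0247 before adjustment). It rests on 0 to 8 UMIs a mouse. In oligodendrocytes Jun had 37.2, 48.2, 19.2 and 13.8 CPM in HttQ175/+ mice, against 64.9, 48.5 and 69.4 CPM in WT mice. The lowest WT value (48.5) was close to the highest HttQ175/+ value (48.2), with a log2 change of -0.85 ± 0.42 (limma adjusted p = 0.541). In Sst interneurons the lowest p was that of Egr1, with a log2 change of 1.07 ± 0.46 (limma adjusted p = 0.732, and 0.0250 before adjustment).

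The share of nuclei with a UMI was compared as well, at 1000 UMIs per nucleus, with exact two-sided permutation tests over the 35 splits of 7 mice. Of 42 pairs of member and class, 0 passed after adjustment and 1 had an unadjusted p under 0.05. This was Fosb in dSPNs, found in 1.16% ± 0.15 of nuclei in HttQ175/+ mice and in 0.54% ± 0.42 in WT mice (SD, n = 4 and 3). Fosb, whose truncated product accumulates with repeated stimulation, had 11.8, 13.7, 10.4 and 12.9 CPM in dSPNs of HttQ175/+ mice, against 4.27, 10.99 and 2.43 CPM in WT mice. The thinned shares did not overlap, and the exact permutation p of 0.0286 is the smallest the design allows (adjusted p = 0.927). At the deposited depth the groups overlapped (exact permutation p = 0.0857). Junb was found in 12.1% ± 3.2 of dSPNs in HttQ175/+ mice and 10.4% ± 2.2 in WT mice, and Egr1 in 10.9% ± 1.7 and 12.8% ± 3.8. With at least 2 UMIs required, Junb was found in 2.29% ± 1.08 of dSPNs in HttQ175/+ mice and in 3.38% ± 1.81 in WT mice (exact permutation p = 0.457). Egr1 was found in 2.54% ± 0.97 of dSPNs in HttQ175/+ mice and in 3.92% ± 1.74 in WT mice (exact permutation p = 0.257), and 0 of 35 pairs passed.

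Genes of the same programme and of the signals that reach it were counted in the same fits, from lists chosen with earlier results of these data known. Of 45 other immediate early genes, 20 entered the dSPN fit and 14 the iSPN fit, and none was called in either (medians -0.13 and -0.16, beside 0.03 and 0.00 over all genes). In oligodendrocytes 6 entered and 1 fell, the kinase gene Sgk1. Sgk1 had 92.5, 94.8, 62.3 and 106 CPM in oligodendrocytes of HttQ175/+ mice, against 523, 257 and 370 CPM in WT mice, with no overlap (log2 change -1.92 ± 0.31, limma adjusted p = 0.00411). It was not called without WT replicate 1 (adjusted p = 0.0712) or WT replicate 3 (adjusted p = 0.0677).

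Of 25 delayed activity genes, 15 entered the dSPN fit, 1 rose and 5 fell (1.47% and 2.47% of all genes rose and fell), with a median of -0.43. The list includes neuropeptide genes of SPNs. Of these, Tac1 and Penk had no nucleus at 1 UMI in any library. Tac1, the precursor of substance P, averaged 248 ± 29.6 CPM in HttQ175/+ and 487 ± 88.7 CPM in WT dSPNs, a log2 change of -1.07 ± 0.17 (limma adjusted p = 0.00231). Penk, the precursor of enkephalin, averaged 26.4 ± 13.03 CPM in HttQ175/+ and 89.0 ± 20.1 CPM in WT dSPNs, with a limma adjusted p of 0.00759. How much of the dSPN value is RNA of iSPNs, where the level is higher, was not tested. In iSPNs, where it is a defining gene, Penk averaged 381 ± 39.9 CPM in HttQ175/+ mice and 1498 ± 338 CPM in WT mice (log2 change -2.04 ± 0.19, limma adjusted p = 2.17e-05). It was the 1 of 9 delayed genes called there (median -0.55). Pdyn, Mapk4 and Inhba fell in dSPNs with limma adjusted p of 0.0316, 0.0263 and 0.0465. Each lost its call when single mice were left out. Inhba lost it without any of the 7 mice, Mapk4 without any but WT replicate 2, and Pdyn without HttQ175/+ replicates 1, 2 or 3 or WT replicates 1 or 3. Their adjusted p were then at most 0.131. Without values of 1 UMI Pdyn was not called either (limma adjusted p = 0.118). Nrn1, which codes for neuritin, rose: it had 30.5, 25.8, 31.9 and 65.9 CPM in dSPNs of HttQ175/+ mice, against 4.07, 0 and 0 CPM in WT mice (limma adjusted p = 0.00133), so its fitted change depends on the pseudocount. The marker sums of other classes that differed between the genotypes in the same dSPNs are given above.

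Of 48 upstream signalling and transcription factor genes, 45 entered the dSPN fit, 0 rose and 7 fell (median -0.14, beside 2.47% of all genes lower and an all-gene median of 0.03). In iSPNs 43 entered, 0 rose and 3 fell (median -0.07, beside 1.76% of all genes lower and an all-gene median of 0.00). Adcy5, the adenylyl cyclase of SPNs, averaged 411 ± 59.2 CPM in HttQ175/+ and 1040 ± 70.8 CPM in WT dSPNs (log2 change -1.46 ± 0.14, limma adjusted p = 6.04e-05). It fell by 1.33 ± 0.16 on the log2 scale in iSPNs as well (limma adjusted p = 0.000356). The other genes that fell in both classes were Camk2b, a CaM kinase II subunit, by 0.97 in dSPNs and 0.91 in iSPNs, and Ppp3ca, the catalytic subunit of calcineurin, by 0.75 and 0.71, with limma adjusted p of at most 0.00444. Among the 6 of the 7 with the smallest p, Rasgrp2 (-1.02, adjusted p = 0.00513), Camk4 (-0.83, adjusted p = 0.00969) and Rps6ka4 (-0.89, adjusted p = 0.0378) fell in dSPNs too, and Rps6ka4 lost its call without any 1 of the 7 mice. These act on cyclic AMP, calcium or the Ras and ERK path that lead to the members. Adcy5, Camk2b and Ppp3ca had no nucleus at 1 UMI in any library, and Rasgrp2 had such nuclei only in HttQ175/+ replicate 3 (34 nuclei). Camk4 was at 1 UMI in 62, 39, 1 and 98 nuclei of HttQ175/+ replicates 1 to 4, against 0, 0 and 0 nuclei of WT replicates 1 to 3. Without values of 1 UMI Camk4 was still called in dSPNs (limma adjusted p = 0.000947). The part of missing values in these falls was not tested. The values of the upstream genes are given side by side with those of the members, and no link between them was tested.

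Of 16 feedback phosphatases and inhibitors of the MAP kinases, 8 entered the dSPN fit and 1 fell (median -0.24, beside 2.47% of all genes lower). This was Spry2, at 62.5 ± 15.7 CPM in HttQ175/+ and 127 ± 36.6 CPM in WT dSPNs (log2 change -1.08 ± 0.23, limma adjusted p = 0.0169). It was not called without HttQ175/+ replicates 1 or 2 or WT replicate 1 (adjusted p of 0.06, 0.0507 and 0.0999). None of 7 was called in iSPNs (median -0.32). Of 17 dimerization partners and corepressors of the members, 6 entered each SPN fit and none was called (medians -0.14 and -0.09). Of 7 genes of proteins that bind or work with ARC, all entered the dSPN fit and Camk2b was the 1 called there (2.47% of all genes lower), as it was of 6 in iSPNs (1.76% lower). In astrocytes and Sst interneurons no gene at all was called, so none of these lists had a called gene. Of the upstream list, 18 genes entered the astrocyte fit, 17 with a change above 0, and their median was 0.63, beside 0.00 over all genes. Of the 18, 3 had an unadjusted limma p under 0.05. The filter asks for 3 mice, which HttQ175/+ mice alone can supply. Astrocytes also held UMIs of SPN genes, as given above, and their part in these changes was not tested.

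Among all other genes, the levels most like the summed members over 64 pairs of mouse and class were those of Pdzd2 (Pearson r = 0.62), Per2 (0.57), Npas4 (0.57), Pde2a (0.56) and Foxp1 (0.56), out of 9132 genes. After the mean of each class was subtracted, which leaves differences between mice, the order was Npas4 (0.59), Dusp1 (0.51), Chd4 (0.51), 6330408A02Rik (0.49) and Gatad1 (0.48). Npas4 is a transcription factor gene induced by neuronal activity, and Dusp1 encodes a MAP kinase phosphatase that is itself an immediate early gene in many cells. The members were like the sum of the other 8 to unequal degrees by the same measure, at 0.59 for Fos, 0.55 for Arc, 0.48 for Nr4a1, 0.45 for Junb, 0.41 for Fosb, 0.22 for Jun, 0.22 for Egr1, 0.14 for Egr3 and 0.01 for Nr4a3. The pairs share mice, libraries and depth, so these are descriptions with no test.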

How the data were processed

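The authors deposited, for each mouse, natural log values of 1 plus UMIs per 10000 in each nucleus, and a table with class, mouse and genotype. Per the submitters' processing notes, Cell Ranger 3.0.2, Seurat and mm10 were used. Counting back gave whole UMIs, within 0.02, for 100% of 5824756 values, with 1128 to 5632 UMIs per nucleus. Because the deposited unit was the natural log and not counts, limma was used and no count model was run. A further table of smoothed values was not used. The members and lists were chosen with earlier results of these data known.

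Values of a class were averaged per mouse as CPM, scaled by TMM and tested as log2(CPM + pseudocount) with limma 3.58.1 in R 4.3.3, HttQ175/+ against WT, in classes that had 10 or more nuclei in 3 or more mice of each genotype. Genes needed 15 UMIs in all and 10 UMIs, at the median mouse's sum, in at least 3 mice. The pseudocount was 3.67 CPM for dSPNs, 8.31 for iSPNs, 15.1 for oligodendrocytes, 22.5 for Sst interneurons and 22.7 for astrocytes. Shares were thinned to 1000 UMIs by exact hypergeometric expectation with Python 3.11.15 and SciPy 1.17.1. Floors (3 UMIs) cover counting error only. All members were named, and of each list the called genes, at most 6 per class with the smallest p. The likeness measure was Pearson's r of log2(CPM + 20) with that of the summed members, for genes of at least 20 CPM. Alternatives were another pseudocount, no filter, no TMM, summed UMIs, leaving out each mouse and, chosen after seeing the data, leaving out values of 1 UMI and requiring 2 UMIs. The fit was tested on simulated data with 2-fold and 4-fold changes. Of these, 27.4% and 97.2% were called in dSPNs, 24.6% and 95.5% in iSPNs and 15.2% and 72.5% in astrocytes. False calls were 1.27% of calls in iSPNs and 13.0% in Sst interneurons. The simulated spread was the same for all genes and was not matched to that of the members.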

Additional observations from a re-analysis of the deposited data

Results flagged for a closer look

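Arc in oligodendrocytes was 26.4, 21.4, 28.4 and 73.6 CPM in HttQ175/+ replicates 1 to 4, against 36.6, 47.8 and 49.1 CPM in WT replicates 1 to 3. Replicate 4 lay far above the other HttQ175/+ mice, with a gap to the nearest that passed Dixon's critical value for 4 samples. It was the 1 such value among 35 groups of HttQ175/+ mice examined, and chance gives about 1 in 20. HttQ175/+ replicate 4 was also the highest HttQ175/+ mouse for Arc in dSPNs (80.9 CPM) but not in iSPNs (99.6 CPM, against 113 CPM in replicate 1).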

How the results depend on the processing

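No paired analysis was possible because the replicate numbers were given in accession order and pair no mice. The 15 member changes were fitted under 178 alternatives in all. None was called in any of them, and 11 alternatives, over 6 of the changes, turned the sign of a change that was not called. Without TMM the median change of all genes moved to 0.14 in dSPNs, against 0.03 with TMM, and the calls split into 226 higher and 162 lower, against 129 higher and 217 lower with TMM. In iSPNs they split into 43 higher and 75 lower, against 31 and 104. The number of all genes called in dSPNs was 346, and 192 to 320 with 1 mouse left out, with 204, 226, 227 and 192 without HttQ175/+ replicates 1, 2 and 4 and WT replicate 1. In dSPNs, leaving out values of 1 UMI gave 66 higher and 275 lower. In iSPNs 135 genes were called, 218 without values of 1 UMI and 53 to 136 with 1 mouse left out, with 82, 53 and 72 without HttQ175/+ replicate 1 and WT replicates 1 and 3. In astrocytes 0 genes were called, 2 without values of 1 UMI and 0 to 3 with 1 mouse left out, highest without WT replicate 3. In oligodendrocytes 24 were called, 2 with no filter, 14 from summed UMIs, 47 without values of 1 UMI, and 1 to 108 with 1 mouse left out, highest without HttQ175/+ replicate 3 and lowest without WT replicate 1 or 3. In Sst interneurons 0 were called, 2 with no filter and 0 to 1 with 1 mouse left out. The causes were not tested. The Fosb share in dSPNs could not reach an exact permutation p under 0.05 with any mouse left out (the lowest p over all pairs was then 0.0667). Depth limits the 5 rarer members, each of which had at most 206 UMIs over all nuclei.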
